A study of Mus musculus with 6 samples.

Results

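The 9 genes described here encode the receptor subunits of type I interferons (Ifnar1, Ifnar2), the receptor-bound kinase Jak1, the ISGF3 components Stat2 and Irf9, and the interferon regulatory factors Irf1, Irf2, Irf3 and Irf7. They were taken by symbol from a count table of 22030 genes. All 9 symbols were found, each with a single identifier, and all 9 passed the filter on low counts that left 13067 genes for testing. The counts come from mRNA sequencing of mouse mBMSCs, bone marrow mesenchymal stem cells, which are stromal cells that can form bone, fat and cartilage. Titles give siNC for 3 control libraries, whose genotype label is WT (wild type), and siRIOK3 for the other 3, whose label is RIOK3 knockdown. The design text speaks of stable lines made with lentivirus and also of a knockout, so the agent is not settled by the labels. The sources used here name no mouse strain, age, culture medium or interferon treatment. Whether the 3 libraries of each group stem from different cultures is also not stated, and p-values therefore reflect the spread between these libraries, which may be technical only.

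Type I interferons bind a receptor made of IFNAR1 and IFNAR2, to which the kinases TYK2 and JAK1 are attached. The activated kinases phosphorylate STAT proteins, among them STAT2, which acts with IRF9 in the factor ISGF3, and ISGF3 turns on genes that carry an interferon-stimulated response element (ISRE). IRF3 and IRF7, once phosphorylated downstream of nucleic acid sensors, switch on the interferon genes themselves, and Irf7 is itself an interferon-stimulated gene. IRF1 activates and IRF2 mostly represses genes with related elements, and Irf1 is a classic target of STAT dimers, which bind gamma-activated sequences (GAS).

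Libraries held between 28327612 and 32569544 counts. Riok3, the targeted gene, was at 143, 193 and 135 CPM (counts scaled by TMM-normalised library size) in control replicates 1, 2 and 3 and at 32.1, 31.5 and 37.2 CPM in knockdown replicates 1, 2 and 3. Control replicate 2 stood apart, correlating with the other control libraries at 0.963 and 0.968 (Spearman, log2 CPM), against 0.996 between these, and the log2 fold change of each member is also given without it. Fold changes of all tested genes followed the GC content of their transcripts (Spearman correlation 0.70 across 13043 genes, which are not independent replicates). Of 15 stromal markers all were in the table and 14 were tested, with a summed level of 839 to 1089 CPM in control and 965 to 980 CPM in knockdown libraries. The sum hides opposite moves: 6 of the 14 were higher and 6 lower, among them Col1a1 (17.6 ± 0.633 to 46.0 ± 1.15 CPM, log2 fold change 1.39) and Vcam1 (56.9 ± 3.55 to 20.9 ± 1.02 CPM, −1.44; edgeR adjusted p = 0.00015 and 0.000158), and 5 were higher and 2 lower with the trend on GC content removed. Of all tested genes 21.1% were higher and 26.8% lower, and 16.3% and 15.2% with that trend removed. Lepr had at most 13 counts and Thy1 at most 36. Of 13 macrophage and monocyte markers 8 were in the table, summing to 26.6 to 43.3 CPM in control and 46.6 to 51.7 CPM in knockdown libraries. Nearly all of that was Cd68, and the leukocyte marker Ptprc had at most 3 counts in any library. Neither Cd68 (log2 fold change 0.45) nor Cd14 (−0.69), the tested ones, passed (edgeR adjusted p = 0.124 and 0.0748). With the trend on GC content removed Cd68 was at 0.09 without passing and Cd14 was called lower. Without control replicate 2, 1 of 3 tested was higher, beside 35.1% of all genes. Markers of dendritic cells and lymphocytes summed to at most 0.129 CPM in any library. Endothelial markers summed to 3.13 to 8.02 CPM in control and 8.30 to 8.79 CPM in knockdown libraries. Most of that was Kdr, at 2.41 to 6.68 CPM in control and 6.53 to 7.89 CPM in knockdown libraries. Neither Kdr nor Tek, the tested ones, passed (edgeR adjusted p = 0.206 and 0.502), and Pecam1 had at most 14 counts and Cdh5 at most 9. The part of these markers in the results below was not tested. In such bulk samples, fewer cells of a type and less RNA per cell cannot be told apart.

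In RIOK3 knockdown cells 4 of the 9 members were higher than in control and none was lower. Irf7 rose most, 3.18-fold, followed by Irf9 (1.79-fold), Ifnar1 (1.43-fold) and Irf3 (1.34-fold). Ifnar2, Jak1, Stat2, Irf1 and Irf2 did not pass the test. A gene was called changed at a Benjamini-Hochberg adjusted p under 0.05 in edgeR's quasi-likelihood test, fitted over all tested genes. By that rule 48% of all tested genes changed, 21.1% higher and 26.8% lower, against 44.4% of the members, all of them higher. In the deciles of GC content that hold members, from low to high GC, 7.29, 12.34, 22.47, 30.06 and 45.48% of genes were higher. There 30.98, 17.24, 11.35, 5.52 and 2.07% were lower, against 86.59% in the decile of lowest GC, which holds no member. The split between directions depends on the scaling: 2758 genes were higher and 3508 lower with TMM, 3771 and 2938 with upper-quartile factors, and 4280 and 2814 with library totals alone, and no member was called lower under any of these. No member had an unadjusted p under 0.05 in the lower direction, and DESeq2 called none lower, while limma-voom with quality weights called 1 lower, Jak1. The median log2 fold change of the members was 0.19, and that of all tested genes 0.01. At least 2-fold changes among the calls were 1 member higher (Irf7; 6.67% of all tested genes) and 0 lower (19.2%). For 5 members every CPM of one group lay above every CPM of the other, as for 62.1% of all tested genes.

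**Figure D1:**
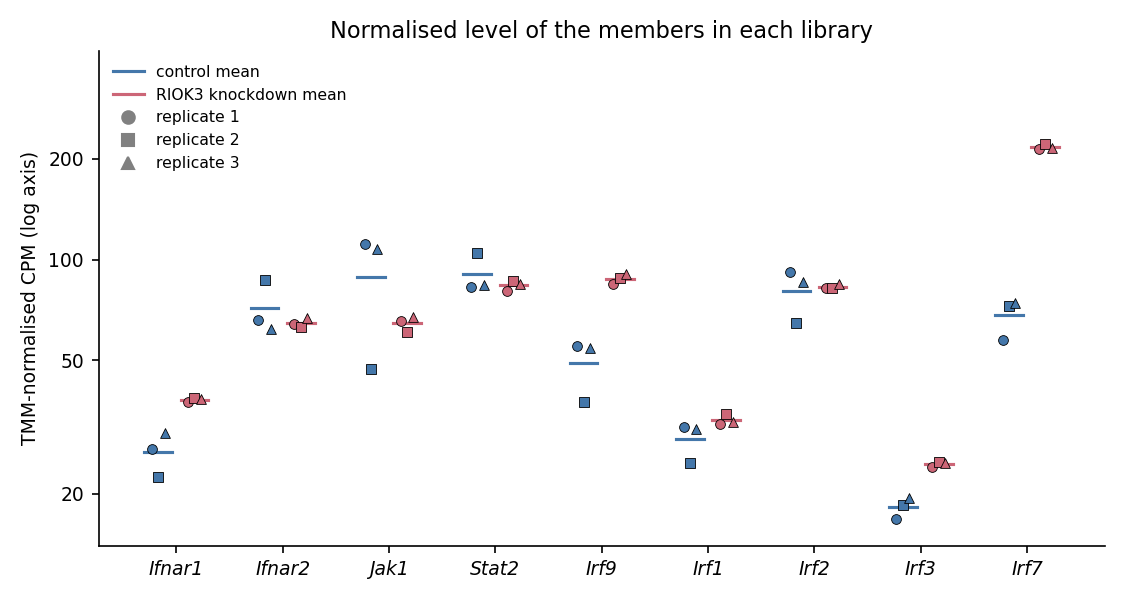
TMM-normalised CPM of each member in each library on a log axis, with control in blue, knockdown in red, a mark shape for each replicate number and a bar at the group mean. The knockdown libraries of Irf7 sit between 214 and 222 CPM, above all control libraries, and control replicate 2 of Jak1 lies at 47.2 CPM, below all other libraries of that gene.

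Irf7, on chromosome 7 (ENSMUSG00000025498.16), encodes the factor that amplifies type I interferon production. Counts were 1719, 2028 and 2206 for control replicates 1, 2 and 3, and 6889, 7375 and 6677 for the knockdown ones. These correspond to 57.7, 72.9 and 74.3 CPM in control and 214, 222 and 215 CPM in knockdown libraries. The lowest knockdown library was well above the highest control library. The means were 68.3 ± 9.21 and 217 ± 4.07 CPM (SD, n = 3 each), a log2 fold change of 1.67 (SE 0.140, edgeR adjusted p = 0.000144). This placed Irf7 at the 98.8th percentile of log2 fold changes among tested genes. It was called higher in all 21 alternative fits, with log2 fold changes from 1.15 to 1.94, the lowest being the fit with the trend on GC content removed (adjusted p = 0.00105). Without control replicate 2 it was at 1.72.

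Irf3, also on chromosome 7 (ENSMUSG00000003184.16), encodes the constitutively expressed partner of IRF7 that responds first to nucleic acid sensing. It had 16.9, 18.5 and 19.5 CPM in control replicates 1, 2 and 3 and 24.1, 24.9 and 24.6 CPM in knockdown replicates 1, 2 and 3. The groups did not overlap, but the distance between them was small. The log2 fold change was 0.43 (SE 0.124, edgeR adjusted p = 0.0252), from means of 18.3 ± 1.32 and 24.5 ± 0.386 CPM (SD, n = 3 each). With the trend on GC content removed Irf3 was at −0.10 and not past the threshold (adjusted p = 0.508). Some fits with fewer libraries left the size about the same but not the call: Irf3 was at 0.37 without control replicate 1 (adjusted p = 0.0794) and at 0.43 to 0.45 without any 1 of the knockdown replicates (0.0843 to 0.0985). It was at 0.45 without a count filter (0.0566), and at 0.44, past the threshold, without control replicate 2. Irf7 counts were 3.42 to 3.95 times those of Irf3 in control libraries and 8.73 to 8.91 times in knockdown libraries, per CPM and not per length. The log2 ratio thus went from 1.90 ± 0.107 to 3.14 ± 0.0157 (SD, n = 3 each; exact permutation test, two-sided p = 0.1, the smallest that 3 against 3 libraries can give).

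Irf1 (chromosome 11, ENSMUSG00000018899.18) and Irf2 (chromosome 8, ENSMUSG00000031627.10) encode the activator and the repressor that compete for related elements. Irf1 was at 31.6, 24.7 and 31.2 CPM in control and 32.3, 34.7 and 32.7 CPM in knockdown replicates 1, 2 and 3. All knockdown libraries lay above all control libraries, control replicates 1 and 3 only just below. Its log2 fold change was 0.19 (95% interval −0.15 to 0.52, edgeR adjusted p = 0.309), and 0.0841 without control replicate 2. It passed as higher with upper-quartile factors (0.39) or library totals alone (0.43), scalings that move the median of all tested genes to 0.21 and 0.26 (log2). It also passed, at 0.42 to 0.47, in the 3 fits on FPKM (fragments scaled by gene length and library total). The median of all genes was 0.28 and 0.35 in the filtered ones and 0.01 in the unfiltered. The unfiltered fit (21879 genes) differs from the filtered one on log2(FPKM + 1) (9804 genes) by the filter alone. Irf1 was at 0.42 in both, so the lower median reflects the added genes and not another scaling. Irf1 was at −0.09 once the GC trend was removed. The CPM of Irf2 were 91.6, 64.6 and 85.7 in control libraries against 82.2, 82.1 and 84.4 after knockdown. The knockdown libraries lay inside the control range, and the log2 fold change was 0.04 (95% interval −0.33 to 0.41, adjusted p = 0.847), and −0.09 without control replicate 2. Irf2 passed as higher once the GC trend was removed, at 0.52 (adjusted p = 0.0129). The log2 ratio of Irf1 to Irf2 counts was −1.46 ± 0.0760 in control and −1.32 ± 0.0669 in knockdown libraries (SD, n = 3 each; exact permutation test, two-sided p = 0.1, the smallest possible). Its direction is not kept with the GC trend removed, where the log2 fold change was −0.09 for Irf1 and 0.52 for Irf2.

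Stat2 (chromosome 10, ENSMUSG00000040033.17) and Irf9 (chromosome 14, ENSMUSG00000002325.16) encode the transactivating and the DNA-binding subunit that are particular to ISGF3. Irf9 was at 55.3, 37.5 and 54.6 CPM in control replicates 1, 2 and 3 and at 84.8, 88.1 and 90.3 CPM in knockdown replicates 1, 2 and 3. The groups did not overlap, and control replicate 2 was the lowest library. Irf9 rose from 49.1 ± 10.1 to 87.7 ± 2.75 CPM (SD, n = 3 each), a log2 fold change of 0.84 (SE 0.174, edgeR adjusted p = 0.00691). It was called higher in all 21 alternative fits, from 0.51 to 1.12. Among these it was at 0.64 with the GC trend removed and at 0.68 without control replicate 2. Stat2 was at 83.0, 104.5 and 83.9 CPM in control and 80.8, 86.0 and 84.6 CPM in knockdown replicates. Only control replicate 2 stood clear of the other libraries, which lay within a narrow range in both groups. Its log2 fold change was −0.11 (95% interval −0.43 to 0.21, edgeR adjusted p = 0.532), and 0.01 without control replicate 2. Irf9 counts were 0.359 to 0.666 times those of Stat2 in control and 1.02 to 1.07 times in knockdown libraries. The difference in that log2 ratio was 0.96, and 0.67 without control replicate 2 (exact permutation test on all 6 libraries, two-sided p = 0.1, the smallest possible).

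Ifnar1 and Ifnar2 lie on chromosome 16 (ENSMUSG00000022967.14 and ENSMUSG00000022971.19). IFNAR2 binds interferon with high affinity and IFNAR1 completes the signalling complex. Ifnar1 was at 27.2, 22.5 and 30.5 CPM in control and 37.5, 38.6 and 38.5 CPM in knockdown replicates 1, 2 and 3. All knockdown libraries were above all control libraries. The means were 26.7 ± 4.02 and 38.2 ± 0.588 CPM (SD, n = 3 each), with a log2 fold change of 0.52 (SE 0.147, edgeR adjusted p = 0.0237). It was at 0.51 with the GC trend removed (adjusted p = 0.0181) and at 0.41 without control replicate 2 (0.000261). The call ended without control replicate 1 (adjusted p = 0.0570) and without any 1 of the knockdown replicates (0.0759 to 0.0840), with log2 fold changes between 0.52 and 0.54. Ifnar2 was at 66.0, 86.9 and 62.0 CPM in control and 64.3, 62.9 and 66.8 CPM in knockdown replicates. Apart from control replicate 2, the highest, the libraries of both groups were interleaved. The log2 fold change of Ifnar2 was −0.15 (95% interval −0.52 to 0.22, adjusted p = 0.472), and 0.02 without control replicate 2. Ifnar1 counts were 0.258 to 0.491 times those of Ifnar2 in control and 0.576 to 0.614 times in knockdown libraries, again without overlap. The difference in the log2 ratio was 0.66 with all libraries (exact permutation test, two-sided p = 0.1, the smallest possible) and 0.39 without control replicate 2. For this ratio and those above, the share of all gene pairs whose ratios also separate the groups was not computed. Of single tested genes 62.1% did not overlap between the groups.

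Jak1 (chromosome 4, ENSMUSG00000028530.15), which encodes the kinase bound to IFNAR2 and to many cytokine receptors, gave a result that rested on a single library. It was at 111, 47.2 and 108 CPM in control replicates 1, 2 and 3 and at 65.7, 60.8 and 67.5 CPM in knockdown replicates 1, 2 and 3. Control replicate 2 lay below the knockdown libraries and the other controls above them. With all libraries the log2 fold change was −0.45 (95% interval −1.18 to 0.27, edgeR adjusted p = 0.258). Without control replicate 2 Jak1 was called lower, at −0.76 (SE 0.0676, adjusted p = 3.59e-08), a 1.69-fold difference between 109 and 64.7 CPM. With the GC trend removed it was at −0.09, and at −0.34 in the fit that also omits control replicate 2 (adjusted p = 4.61e-05).

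**Figure D2:**
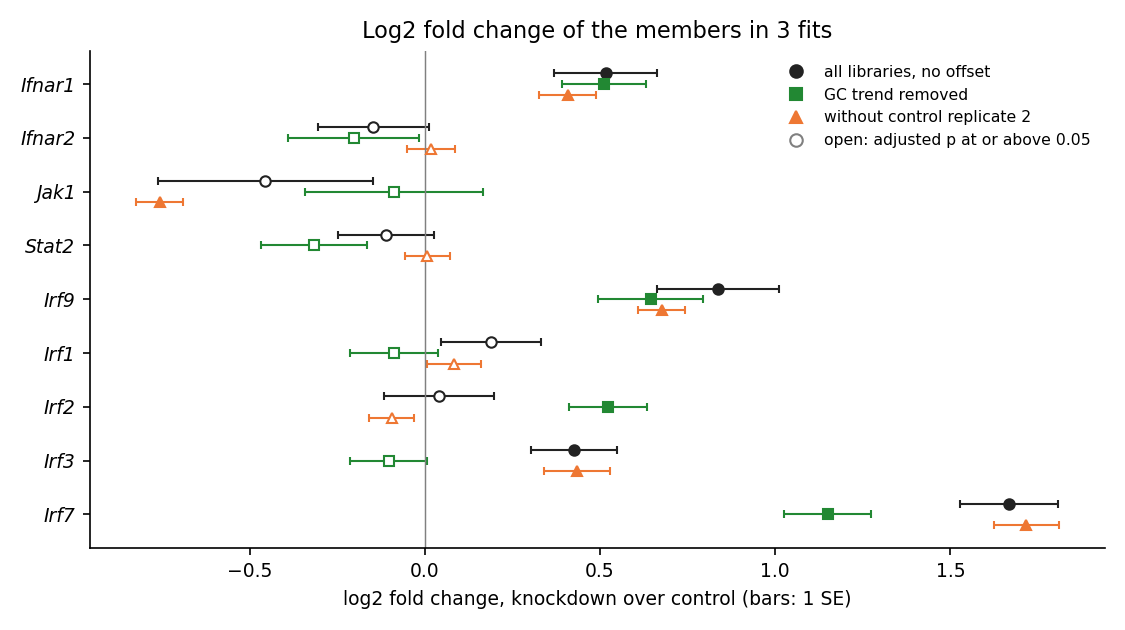
Log2 fold change of each member, knockdown over control, with bars of 1 SE, from the fit on all libraries (black circles), with the GC trend removed (green squares) and without control replicate 2 (orange triangles), where filled marks passed an adjusted p under 0.05. Irf7, Irf9 and Ifnar1 were filled and above 0 in the 3 fits, Irf3 lost its call with the GC trend removed, Irf2 gained one there, and Jak1 was filled, at −0.76, without control replicate 2.

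Levels of different genes can be compared only per length, here on the FPKM scale (fragments scaled by gene length and library total, as deposited). In control libraries the order by mean FPKM was Ifnar2 (18.9), Irf7 (16.0), Stat2 (13.4), Jak1 (10.9), Irf2 (9.63), Irf9 (8.06), Irf1 (6.48), Irf3 (4.68) and Ifnar1 (3.97). Of the neighbours in that order only Irf1 and Irf3 did not overlap between libraries. In knockdown libraries Irf7 came first at 61.3 ± 1.32 FPKM, followed by Ifnar2 at 20.8 ± 0.714, Irf9 at 17.4 ± 0.664 and Stat2 at 15.1 ± 0.573 FPKM (SD, n = 3 each). Irf2, Jak1, Irf1, Irf3 and Ifnar1 followed, from 11.97 to 6.87 FPKM, and only Jak1 and Irf1 overlapped among neighbours. Irf9 thus stood sixth in control and the third in knockdown libraries. Of the summed FPKM of the 5 IRF members, Irf7 held 30.1, 41.4 and 35.8% in the control group (replicates 1, 2 and 3) and 57.4, 57.5 and 56.7% after knockdown. These shares carry no offset for GC content. Removing the GC trend from the counts took the log2 fold change of Irf2 up, from 0.04 to 0.52. It took that of Irf7 down, from 1.67 to 1.15, and those of Irf1, Irf3 and Irf9 down as well. The SD of CPM between control libraries ran from 7.24% of the mean (Irf3) to 40.5% (Jak1), and between knockdown libraries from 1.54% (Ifnar1) to 5.35% (Jak1).

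**Figure D3:**
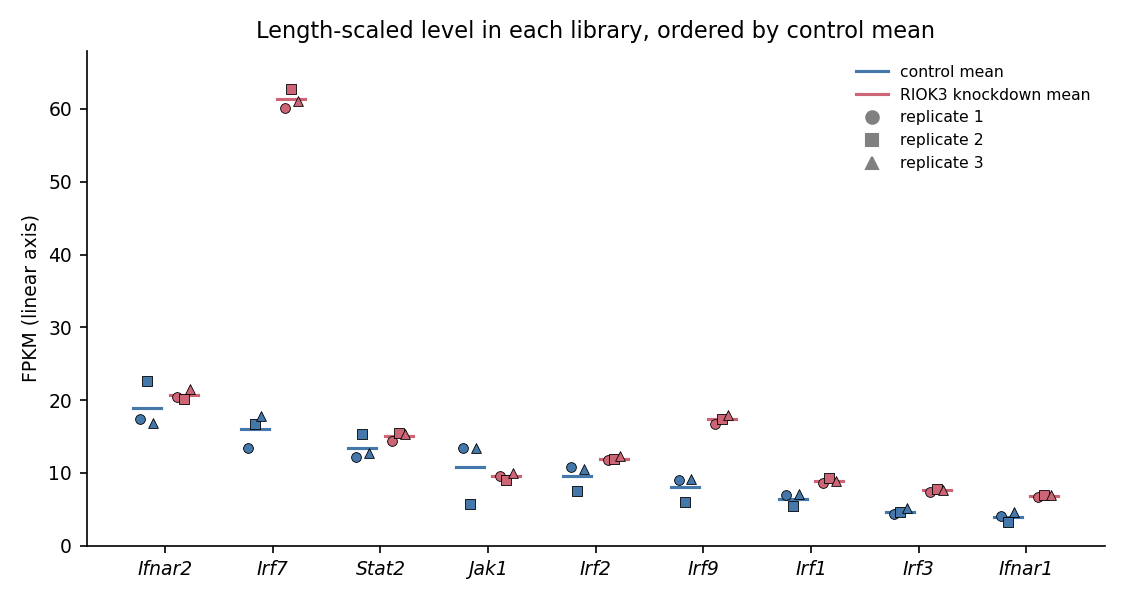
FPKM of the 9 members in each library on a linear axis, ordered by control mean, with control in blue, knockdown in red and a bar at each group mean. Irf7 moves from the second place in control (16.0 FPKM) to the first in knockdown (61.3 FPKM).

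The members' transcripts have a GC content between 46.8% (Irf2) and 56.7% (Irf3), a stretch over which the median change of tested genes (log2) ran from −0.28 in the decile of 46.7 to 48.6% GC to 0.55 in the decile of 56.0 to 58.3%. Irf7 (56.5%) and Irf3 fall in the latter decile. Irf7 lay above that median and Irf3 slightly below it. Irf9, Stat2 and Ifnar2 fall in the decile of 50.4 to 52.3%, with a median of 0.19. Irf9 lay above that value and Stat2 and Ifnar2 below it. Ifnar1 (50.1%) belongs to the decile of 48.6 to 50.4%, whose median was −0.02, and lay above it. Irf1 (52.8%) was below the median of its decile, 0.34. Jak1 and Irf2 share the decile with the median of −0.28, Jak1 below it and Irf2 above. The GC content is that of a single transcript per gene. Over all coding transcripts of the annotation it spans 55.3 to 60.2% for Irf7, 52.5 to 59.6% for Irf3 and 32.3 to 51.4% for Irf2. The span is 47.6 to 60.3% for Jak1, 51.3 to 59.6% for Irf1 and 47.1 to 54.8% for Ifnar2. Other transcripts were not tried.

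**Figure D4:**
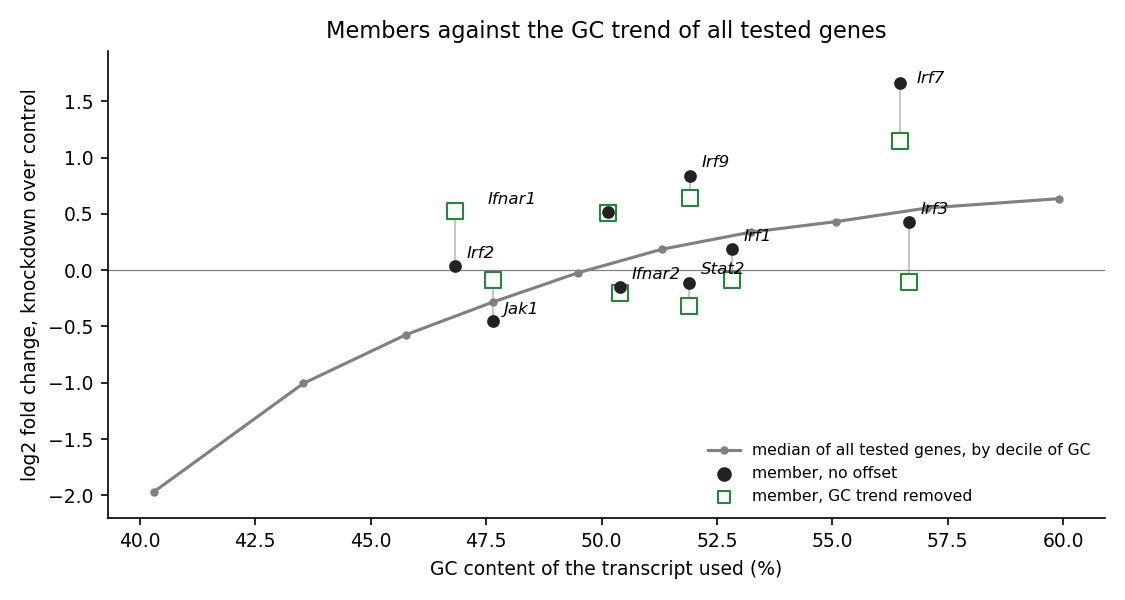
Log2 fold change, knockdown over control, against the GC content of the transcript used, with members as black dots, their values with the GC trend removed as open green squares, and a grey line through the medians of all tested genes by decile of GC. Irf7 (1.67) and Irf9 (0.84) lie above the grey line, Irf3 (0.43) lies slightly below it, and with the trend removed Irf7 is at 1.15 and Irf3 at −0.10.

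Promoter sequences were set beside these changes because ISGF3 and STAT dimers act through known letters. RefSeq windows on GRCm38.p6, which precedes the GRCm39 of the submitters' processing notes, reach from 250 bases before to 50 bases after each annotated start. All 9 members matched, with 11 windows. The core of an ISRE, GAAA followed by any 2 bases and GAAA again, was found on either strand in the windows of 2 members, Stat2 and Irf2, and in 3.44% of all 32851 promoter windows. TTCNNNGAA, the GAS pattern, was found in windows of 4 members, Ifnar1, Ifnar2, Irf1 and Irf2, and in 8.30% of all windows. Neither pattern was in the windows of Irf7, Irf9, Irf3 or Jak1, and of the 4 members that rose only Ifnar1 held a match, a GAS pattern that spans its start. A match is a description of letters and not of binding. The 250 bases before the start are shown 5′ to 3′ for Irf7, the largest rise, and for Stat2, Irf2, Irf1 and Ifnar2, the members that did not pass the test and hold a pattern. Capitals mark them.
Irf7, chr7:141266425-141266674, minus strand: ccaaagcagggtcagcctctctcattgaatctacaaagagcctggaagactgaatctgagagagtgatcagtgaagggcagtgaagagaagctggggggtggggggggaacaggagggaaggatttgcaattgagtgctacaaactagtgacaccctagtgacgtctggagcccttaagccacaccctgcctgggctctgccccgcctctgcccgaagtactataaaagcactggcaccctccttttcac
Stat2, chr10:128270248-128270497, plus strand: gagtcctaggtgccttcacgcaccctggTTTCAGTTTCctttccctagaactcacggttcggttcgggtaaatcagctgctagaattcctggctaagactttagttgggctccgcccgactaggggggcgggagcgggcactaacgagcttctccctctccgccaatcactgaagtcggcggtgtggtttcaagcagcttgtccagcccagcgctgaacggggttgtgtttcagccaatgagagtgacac
Irf2, chr8:46739495-46739744, plus strand: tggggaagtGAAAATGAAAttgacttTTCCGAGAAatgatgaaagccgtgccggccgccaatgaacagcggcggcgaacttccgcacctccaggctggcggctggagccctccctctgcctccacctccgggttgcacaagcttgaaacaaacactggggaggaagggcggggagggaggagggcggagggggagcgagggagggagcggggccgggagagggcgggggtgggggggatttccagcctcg
Irf1, chr11:53769764-53770013, plus strand: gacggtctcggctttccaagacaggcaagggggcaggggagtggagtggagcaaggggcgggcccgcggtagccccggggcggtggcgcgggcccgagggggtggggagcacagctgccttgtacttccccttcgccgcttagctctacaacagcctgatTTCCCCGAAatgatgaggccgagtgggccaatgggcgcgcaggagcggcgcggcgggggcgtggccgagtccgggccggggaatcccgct
Ifnar2, chr16:91372533-91372782, plus strand: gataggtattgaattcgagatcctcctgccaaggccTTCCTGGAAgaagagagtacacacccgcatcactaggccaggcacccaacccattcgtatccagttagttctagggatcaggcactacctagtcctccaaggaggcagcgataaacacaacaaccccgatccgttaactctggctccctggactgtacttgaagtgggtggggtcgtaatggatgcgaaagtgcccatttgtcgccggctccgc
The Stat2 match begins 222 bases before the start. In Irf2 the ISRE core begins 241 bases and the GAS pattern 224 bases before the start, 2 patterns that do not overlap. The GAS pattern begins 90 bases before the start in Irf1 and 214 bases before it in Ifnar2.

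The genes whose pattern over the 6 libraries was closest to 3 of the members were sought by the Euclidean distance of log2 CPM, each gene centred on its own mean. For Irf7 they included Marveld1 (distance 0.167) and Tmem98 (0.187). For Ifnar1 they were Madd (0.0697), Pkd1 (0.0708) and Kctd10 (0.0791), and for Stat2 Cd9 (0.0475), Ybx3 (0.0609) and Dctn6 (0.0792). Between members, Irf3 and Irf7 had a Pearson correlation of log2 CPM of 0.99 over the 6 libraries and Ifnar1 and Irf9 one of 0.98, while Ifnar2 and Irf2 had one of −0.89. These are descriptions over 6 libraries that share the group difference and control replicate 2.

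Other genes of the pathway moved in both directions. As a background for the list counts below, 21.1% of all tested genes were called higher and 26.8% lower in the main test. The shares were 16.3% and 15.2% with the GC trend removed, and 35.1% and 36.5% without control replicate 2. Among the other Janus kinases Tyk2, the partner of IFNAR1, rose from 11.2 ± 1.42 to 19.5 ± 1.87 CPM (log2 fold change 0.80, SE 0.153, edgeR adjusted p = 0.00470). Jak2, the kinase of the interferon-gamma receptor IFNGR2, fell from 64.4 ± 3.58 to 19.5 ± 2.18 CPM (−1.72, SE 0.140, adjusted p = 0.000123). Jak3 was at −0.10 and did not pass. After removal of the GC trend Tyk2 was at 0.26 and did not pass, while Jak2 (−0.77) stayed past the threshold and Jak3 (−0.80) was past it too. The 3 tested receptor subunits Ifngr1, Ifngr2 and Il10rb did not pass (−0.04, 0.24 and 0.35, edgeR adjusted p from 0.118 to 0.781). No unadjusted p among them was under 0.05, and 1 of the 3 passed as higher without control replicate 2.

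Of 5 other tested STAT genes 2 rose and 0 fell, and 3 rose and 1 fell without control replicate 2. Stat5a rose from 1.22 ± 0.397 to 4.36 ± 0.213 CPM and Stat5b from 26.7 ± 6.04 to 42.6 ± 3.04 CPM (log2 fold changes 1.83 and 0.67, edgeR adjusted p = 0.00125 and 0.0235). Both encode STATs of growth hormone and cytokine signalling. They are close paralogs, so their counts are uncertain where reads could be shared. Stat5a had few counts, 50, 28 and 29 in control replicates 1, 2 and 3 and 140, 138 and 142 in the knockdown ones. Stat6, of interleukin-4 signalling, was at 0.61 (adjusted p = 0.0788). Of the other IRF genes Irf5 was tested, at 0.31 (adjusted p = 0.374), and Irf8, of myeloid cells, had at most 5 counts in any library. Irf2bp1 and Irf2bpl, genes of IRF2-binding corepressors, rose (0.73 and 1.08, adjusted p = 0.00934 and 0.0137), and Irf2bp2 was at 0.20 (0.172). With the GC trend removed Stat5a kept its call (1.35), while Stat5b (0.40), Irf2bp1 (−0.01) and Irf2bpl (0.41) did not pass.

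Of 14 tested negative regulators 3 rose and 4 fell, with a median of 0.22. Usp18, the ISG15 protease that also binds IFNAR2 and damps its signalling, rose from 29.6 ± 6.03 to 82.6 ± 1.27 CPM (log2 fold change 1.48, SE 0.172, edgeR adjusted p = 0.000609). It was at 1.39 with the GC trend removed and still past the threshold. Ptpn2, a phosphatase of JAK1, was at −1.71 (adjusted p = 0.000461), and at 0.32 with the trend removed, where it did not pass. The STAT inhibitor genes Pias3 and Pias2 were at 1.16 and −0.85, both past the threshold (adjusted p = 0.0154 and 0.00732). With the trend removed Pias3 (0.75) did not pass and Pias2 was called higher (0.48). In all, 3 rose and 2 fell with the trend removed, and 6 rose and 4 fell without control replicate 2.

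Of 24 tested ISGF3 target genes 8 rose and 8 fell, with a median log2 fold change of 0.09. The 4 with the smallest p all fell. Ifit1, an RNA-binding antiviral gene, went from 135 ± 16.1 to 11.6 ± 1.49 CPM, and its close paralogs make its count uncertain. The RNA sensor gene Ifih1 was at −2.87, the kinase gene Eif2ak2 at −1.95 and Ifi44 at −1.42 (edgeR adjusted p from 2.68e-05 to 0.000383). After removal of the GC trend Ifit1 (−2.33), Ifih1 (−1.53) and Eif2ak2 (−0.88) stayed past the threshold and Ifi44 was at 0.69 without passing. The list then had 7 higher and 5 lower, beside 16.3% and 15.2% of all tested genes. Without control replicate 2 it had 11 higher and 10 lower, beside 35.1% and 36.5% of all tested genes.

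Of 16 tested IRF1 and interferon-gamma target genes 7 rose and 5 fell, with a median of 0.15. Tap1, a peptide transporter subunit of antigen presentation, rose from 23.3 ± 2.45 to 64.4 ± 6.45 CPM (log2 fold change 1.47, SE 0.147, edgeR adjusted p = 0.000299). The guanylate-binding protein genes Gbp2 and Gbp3, members of a family of close paralogs, fell by 1.55 and 1.83 on the log2 scale, and the chemokine gene Cxcl10 fell by 1.27. All 4 kept their direction and call with the GC trend removed, at 0.91, −1.09, −1.20 and −0.73. The list had 4 higher and 5 lower with the trend removed, and 7 higher, 8 lower and a median of −0.05 without control replicate 2.

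Of 9 tested genes that act in the activation of IRF3, 2 rose and 5 fell, with a median of −0.59. Tank, Azi2 and Tbk1, which encode the kinase TBK1 and its adaptors, fell by 2.42, 1.33 and 1.25 on the log2 scale, and Ticam1, the adaptor gene of endosomal RNA sensing, rose by 0.61 (edgeR adjusted p from 0.000751 to 0.00642). With the GC trend removed Tbk1 (−0.52) kept its call, and Tank (0.01), Azi2 (−0.03) and Ticam1 (0.09) did not pass. The list then had 0 higher and 2 lower, with a median of −0.03. Without control replicate 2 it had 2 higher and 5 lower, with a median of −0.74. Of 13 interferon genes 3 were in the count table and none passed the filter. Ifnb1, interferon beta, was seen with 8, 4 and 5 counts in control and with 0, 2 and 3 after knockdown. These few counts allow no comparison at this depth.

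**Figure D5:**
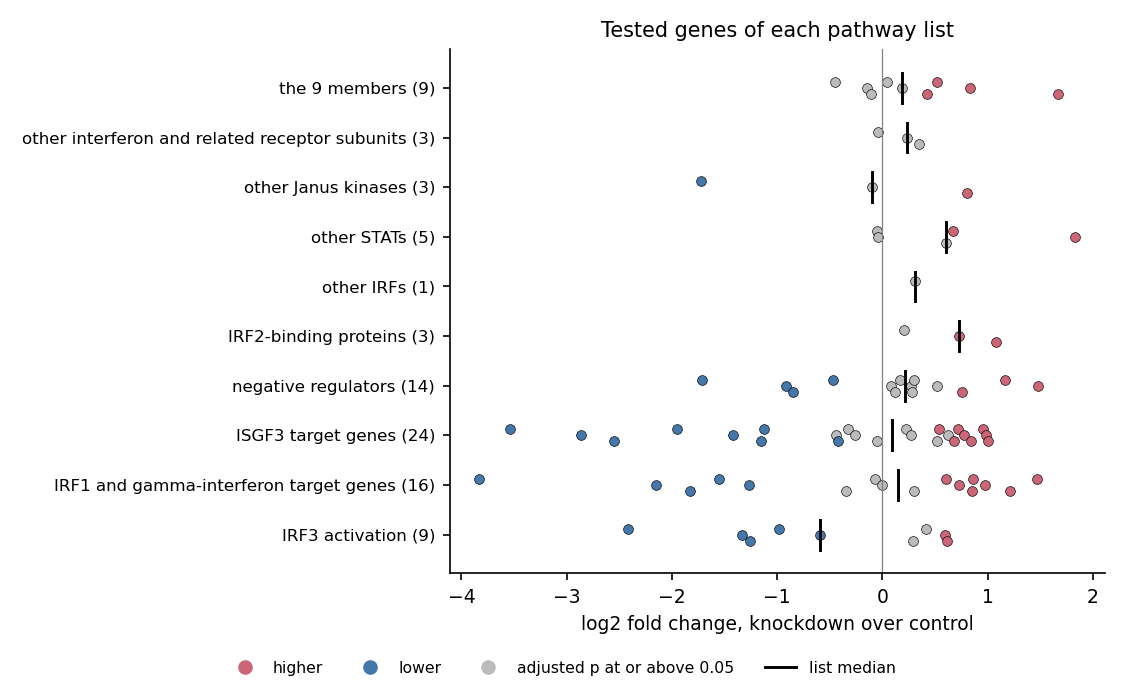
Log2 fold change, knockdown over control, of each tested gene in the pathway lists, with red marks for genes called higher, blue for lower, grey for those not past an adjusted p of 0.05, black bars at list medians and the number of tested genes in brackets. The members have no blue mark, whereas ISGF3 target genes have 8 red and 8 blue ones.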

How the data were processed

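For 3 control and 3 knockdown libraries the authors deposited raw read counts of each gene. A further deposited table holds FPKM values. Columns were assigned to libraries by name. The submitters' processing notes list HISAT2, MultiQC and GRCm39, without role. A stranded mRNA kit and paired-end reads are stated per the labels' protocols. The counting tool, annotation release and strand setting were not given in the sources used here.

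Counts were compared by edgeR 4.0.16 under R 4.3.3 (filterByExpr, TMM, glmQLFit with robust estimation, glmQLFTest, two-sided, no covariate), with p-values adjusted by Benjamini-Hochberg over 13067 genes. SE is the log2 fold change divided by the square root of F, and log2 CPM used a prior count of 2. The 95% intervals use the degrees of freedom of that test. Members had at least 502 counts in every library, so counting error is at most 4.46% of a level.

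Alternatives were DESeq2 1.42.0, limma 3.58.1 (voom with quality weights, and limma-trend on log2(FPKM + 1) or log2(FPKM + 0.1) of genes reaching FPKM 1 in 3 libraries, and log2(FPKM + 1) unfiltered), RLE, upper-quartile and no factors, dropping the filter, requiring 5 CPM in 3 libraries, a replicate block, each library left out, and offsets for GC content, or GC content and length. Each offset is a loess trend (span 0.3, degree 1) fitted to each library's deviations from the gene means of log2 CPM, against GENCODE M21 transcripts, matched for 99.8% of tested genes. The transcript with the longest coding part was used. The GC offset without control replicate 2 was added after seeing the data. The test code was checked on simulated counts.

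The members, the gene lists, the tests and the naming rule (all members, Riok3, up to 4 tested genes with the smallest p per list, and the 3 nearest genes for 3 members) were chosen with earlier results of these data known. Some genes that the naming rule selects are not reported here. Promoters are from RefSeq.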

Additional observations from a re-analysis of the deposited data

How the results depend on the processing

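Over 21 alternatives the 9 members gave 189 values, of which 140 kept their direction and side of the threshold, 12 lost a call, 13 gained one and 24 changed sign. Irf7 and Irf9 kept direction and call in every alternative. The count of members called higher was 2 to 4, and of those called lower 0 to 1, when 1 library was left out. In these fits 12.3 to 35.1% of all genes were called higher and 20.1 to 36.5% lower. Without control replicate 2, 1 member (Jak1) was called lower, beside 36.5% of all genes, and likewise with limma-voom, beside 36.8%. With the GC trend removed as well 3 were (Jak1, Stat2 and Irf1), beside 27.9% of all genes lower and 61.5% called.

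The deviations of same-numbered libraries from their group means correlated at −0.08, 0.04 and 0.05. These values show no pairing by replicate number, but with 3 libraries per group they cannot exclude it. With the replicate block 2 members were called higher, beside 18.3% of all genes. Ifnar1 (0.53, edgeR adjusted p = 0.0543) and Irf3 (0.43, 0.0863) did not pass there, at nearly the same log2 fold change. With the block and the GC offset 3 were called higher (Irf2, Irf7 and Irf9), beside 12% of all genes.

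All sign changes concerned members not past the threshold in the main test, except Irf3. Ifnar2 was at 0.0284 with upper-quartile factors, 0.11 with library totals alone, 0.0167 with limma-voom, 0.14 in the 3 fits on FPKM, and 0.0221 with the GC offset and without control replicate 2. Stat2 was at 0.0691 with upper-quartile factors, 0.14 with library totals alone, 0.16 on log2(FPKM + 1) with and without a filter, and 0.17 on log2(FPKM + 0.1). Irf2 was at −0.0725 with limma-voom. With 1 library left out Ifnar2 ranged from −0.2409 to 0.0176, Stat2 from −0.173 to 0.0076 and Irf2 from −0.0944 to 0.1386, each with its changed sign only without control replicate 2. With the GC offset, the GC and length offset, the block with the GC offset, and the GC offset without control replicate 2, Irf1 was at −0.0877, −0.0986, −0.0828 and −0.1736, and Irf3 at −0.1032, −0.082, −0.103 and −0.1018. The cause was not tested.

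The counts limit no statement on the members, whose lowest count was 502, but they do limit those on interferon genes, Irf8 and Stat5a. Over all genes 6266 were called in the main test, 9592 without control replicate 2, 9477 with limma-voom, 4118 with the GC offset and 3102 with the block and the GC offset.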

Other observations

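Control replicate 2 was below both other control libraries for Ifnar1, Jak1, Irf9, Irf1 and Irf2, above both for Ifnar2 and Stat2, and between them for Irf3 and Irf7. It was furthest from them for Jak1, at 0.432 times their mean CPM, and at 0.683 and 1.36 times for Irf9 and Ifnar2. Stat3, which encodes the STAT of interleukin-6 signalling, had 73.3, 24.8 and 65.6 CPM in control replicates 1, 2 and 3 and 51.7, 50.6 and 56.0 CPM in knockdown replicates, so that control replicate 2 lay below the knockdown libraries and the other controls above them, as for Jak1.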
